A study of Mus musculus with 4 samples.

Results

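The 10 genes described here, Cd68, Adgre1, Csf1r, Mrc1, Cd163, Itgam, Lyz2, Ctss, Lgals3 and Fcgr1, are widely used as markers of macrophages. They were followed in mouse skeletal muscle through every array probe whose gene name in the files is a member or its older alias, Emr1 for Adgre1 and Lyzs for Lyz2. That gave 16 probes of the 41174 non-control probes, and 10 genes of the 27597 genes or named transcripts on the array. The muscles came from ob/ob TBP-2-/-, ob/ob, TBP-2-/- and WT mice, all 10 weeks old and fed freely. TBP-2 is the labels' name for the product of Txnip, the thioredoxin-interacting protein, and ob/ob mice lack functional leptin. Each genotype had 1 one-colour Agilent array, and the 4 arrays lay on 1 slide from 1 scan. Whether each RNA came from 1 mouse or several, the muscle dissected, the sex, the strain and the extent of the Txnip deletion are not given in the labels. The genotype field of the ob/ob sample is spelled differently from its title, and the title was used.

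Macrophages are phagocytes that live in every tissue. In muscle they sit between the fibres, around vessels and nerves and in the fat between bundles, and they clear debris after damage. Their development and survival depend on signalling through the receptor encoded by Csf1r, and the transcription factor PU.1 switches on many of their genes.

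With 1 array per genotype there is no replicate check, so differences between 2 arrays carry no p-value. Each is given as a log2 difference with the standard error (SE) of the scanner software's error model, which covers technical error on the array only. A level is the processed signal of a probe as a percentage of the 75th percentile over all non-control probes of that array. Levels of different probes are not compared, since probes differ in brightness. The arrays had 23679 (ob/ob TBP-2-/-), 23429 (ob/ob), 24220 (TBP-2-/-) and 22674 (WT) probes well above background, and no spot was saturated. Txnip, the deleted gene, checked the labels: the level of its brightest probe was 63.4% in ob/ob TBP-2-/- muscle against 4257% in ob/ob muscle, and 283% in TBP-2-/- muscle against 4719% in WT muscle. Every one of the 8 skeletal muscle markers was well above background on all arrays.

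Relative to the other genes on the array, macrophage marker RNA was higher in both muscles without TBP-2 than in the matching muscle with it. Of the 9 members well above background on all arrays, 9 were higher on TBP-2-/- than on WT, as 39.6% of all genes were, and 9 were higher on ob/ob TBP-2-/- than on ob/ob, as 55.6% of all genes were. Of all genes, 25.2% were higher in both. The TBP-2-/- array was the highest of the arrays for 8 of 9 members, against 15.0% of all genes, and the ob/ob TBP-2-/- array for Lgals3 (1 of 9, against 29.3%). Under spike-in scaling the TBP-2-/- array was highest for 7 of 9 and the ob/ob array for Lyz2 and Lgals3. The shares of all genes highest on each array were not counted under spike-in scaling. Scaling to the spike-in RNA in place of the 75th percentile kept all 9 higher on TBP-2-/- than on WT, but left only Adgre1 and Mrc1 (2 of 9) higher on ob/ob TBP-2-/- than on ob/ob. Of all genes, 78.1% were higher in the first comparison and 8.58% in the second under that scaling. That scaling moved the median log2 difference of all genes to 0.17 for TBP-2-/- minus WT and to -0.48 for ob/ob TBP-2-/- minus ob/ob, from -0.07 and 0.04 on the 75th percentile scale. A change of scaling factor shifts all genes alike, so the position relative to the median of all genes stays as it is: 9 of 9 members lay above that median in both comparisons, against 27.9% of all genes. The median log2 difference of the members relative to that of all genes was 0.76 for TBP-2-/- minus WT and 0.41 for ob/ob TBP-2-/- minus ob/ob. These 2 comparisons share no array. In whole muscle, more macrophages and more of these RNAs per macrophage cannot be told apart.

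**Figure D1:**
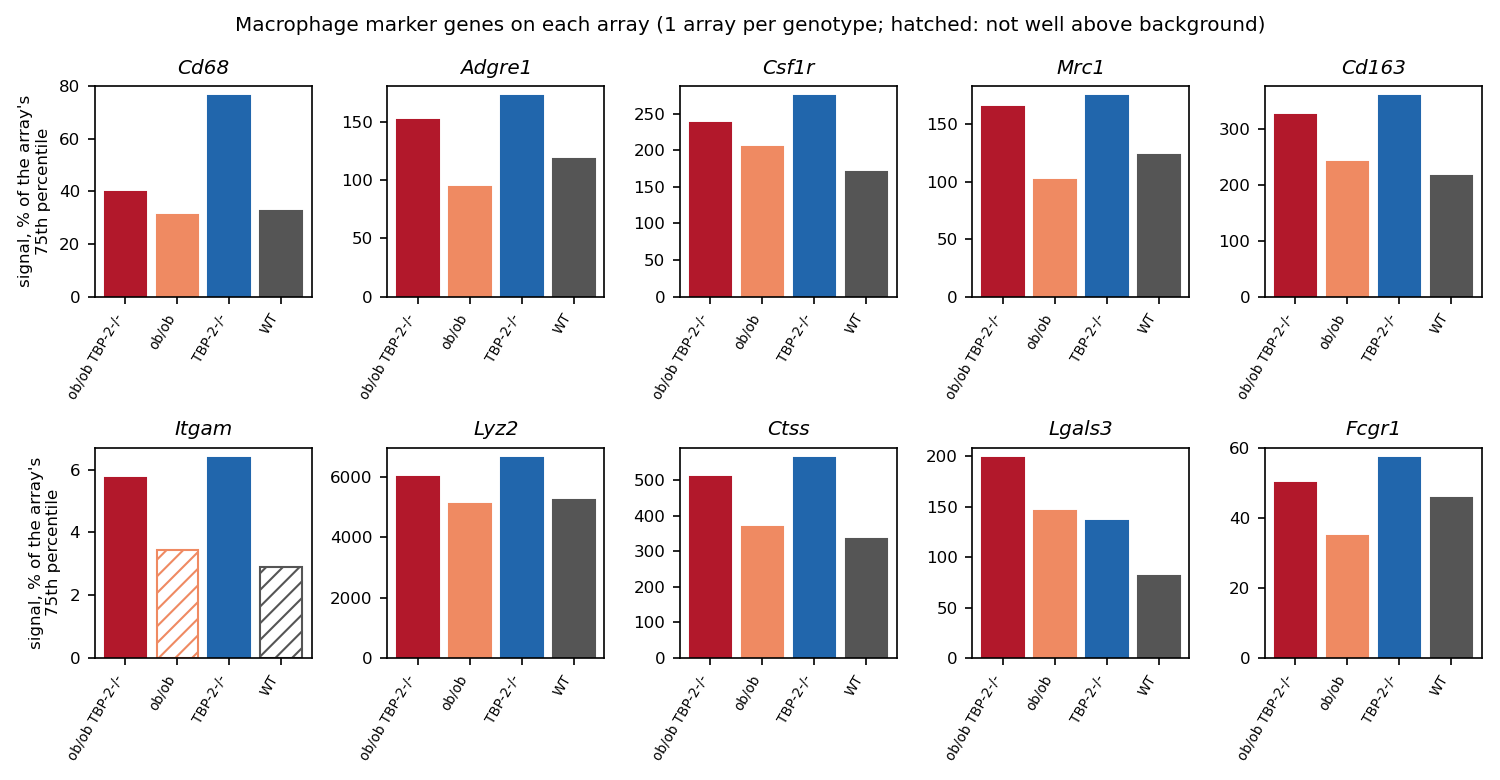
Level of each macrophage marker gene on each array, as its brightest probe's processed signal in percent of the array's 75th percentile (vertical axes start at 0 and differ between panels). Bars are single arrays of ob/ob TBP-2-/-, ob/ob, TBP-2-/- and WT muscle, and hatched bars were not well above background. On this scale 8 of the 9 members measured on all arrays were highest on the TBP-2-/- array, 7 of the 9 under spike-in scaling, and Lgals3 was highest on the ob/ob TBP-2-/- array (under spike-in scaling, on the ob/ob array). The matching shares of all genes were not counted under spike-in scaling.

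Of the surface receptors, Csf1r encodes the receptor for the growth factor CSF1, on which macrophages depend. Its brightest probe, on chromosome 18, had a level of 237% on the ob/ob TBP-2-/- array, 205% on the ob/ob array, 274% on the TBP-2-/- array and 170% on the WT array. The TBP-2-/- array was the highest and the WT array the lowest. The log2 difference was 0.69 ± 0.20 (SE) for TBP-2-/- minus WT and 0.21 ± 0.20 for ob/ob TBP-2-/- minus ob/ob, the second of which was -0.31 under spike-in scaling. A dimmer Csf1r probe was likewise highest on the TBP-2-/- array and lowest on the WT array, with levels of 52.8% (ob/ob TBP-2-/-), 44.5% (ob/ob), 65.3% (TBP-2-/-) and 42.9% (WT). The third Csf1r probe was well above background on the ob/ob array only and enters only where the median over a gene's probes is named as an alternative.

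Adgre1, formerly Emr1, encodes F4/80, the surface receptor most used to stain mouse macrophages. Its probe at chr17:57168755-57168814 (mm8, as are all probe positions here) had a level of 152% on the ob/ob TBP-2-/- array, 93.9% on the ob/ob array, 172% on the TBP-2-/- array and 118% on the WT array. Both arrays without TBP-2 lay above both arrays with it. Adgre1 differed by a log2 of 0.54 ± 0.20 for TBP-2-/- minus WT and 0.69 ± 0.20 for ob/ob TBP-2-/- minus ob/ob, and it stayed above 0 in both under spike-in scaling (0.79 and 0.17). A further Adgre1 probe was not well above background on any array.

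Itgam encodes CD11b, the integrin chain shared by macrophages, monocytes and neutrophils. Its brighter probe (chr7:127909109-127909168) had levels of 5.74% on ob/ob TBP-2-/-, 3.44% on ob/ob, 6.38% on TBP-2-/- and 2.90% on WT. It was well above background only on the arrays without TBP-2, so the differences are bounds. The level was at least 1.59-fold higher on TBP-2-/- than on WT and at least 1.64-fold higher on ob/ob TBP-2-/- than on ob/ob, bounds that became 1.88-fold and 1.14-fold under spike-in scaling. Each bound sets the bright array against the lowest signal well above background on the dim array. The bounds leave out the error of the bright array's signal, so smaller differences remain possible. In log2, the SE of the measured difference was 0.50 for TBP-2-/- minus WT and 0.42 for ob/ob TBP-2-/- minus ob/ob. The other Itgam probe was not well above background on any array.

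Fcgr1 encodes the high-affinity receptor for IgG. At chr3:96368314-96368360 its probe had a level of 50.1% on the ob/ob TBP-2-/- array, 35.0% on the ob/ob array, 57.4% on the TBP-2-/- array and 45.8% on the WT array. The ob/ob array was the lowest on this scale, and the WT array under spike-in scaling. In log2, Fcgr1 differed by 0.33 ± 0.21 for TBP-2-/- minus WT and 0.52 ± 0.21 for ob/ob TBP-2-/- minus ob/ob, the second of which was -0.003 under spike-in scaling. A second Fcgr1 probe was well above background only on the TBP-2-/- and WT arrays, at 6.97% and 4.89%. Fcgr1 and Ctss lie on the same chromosome as Txnip, the deleted gene, with 276 kb and 1003 kb from their brightest probes to the nearest Txnip probe.

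The scavenger receptors Mrc1 and Cd163 are typical of resident and alternatively activated macrophages. Mrc1 encodes the mannose receptor CD206. It had levels of 165% on ob/ob TBP-2-/-, 102% on ob/ob, 175% on TBP-2-/- and 124% on WT (probe at chr2:14249431-14249491). Mrc1 differed by a log2 of 0.50 ± 0.20 for TBP-2-/- minus WT and 0.70 ± 0.20 for ob/ob TBP-2-/- minus ob/ob, above 0 under spike-in scaling as well (0.75 and 0.18). As with Adgre1, both arrays without TBP-2 lay above both with it, and the gap was wider on the ob/ob background on this scale, though not under spike-in scaling.

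Cd163 encodes the receptor that takes up complexes of haemoglobin and haptoglobin. Its level was 325% on the ob/ob TBP-2-/- array, 240% on the ob/ob array, 358% on the TBP-2-/- array and 215% on the WT array (chr6:124296085-124296144). Here the WT array was the lowest. The log2 difference was 0.73 ± 0.20 for TBP-2-/- minus WT and 0.43 ± 0.20 for ob/ob TBP-2-/- minus ob/ob, the second being -0.09 under spike-in scaling.

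Cd68, Ctss and Lyz2 encode proteins of the lysosome and its contents. Cd68, a heavily glycosylated membrane protein of late endosomes and lysosomes, had a level of 39.9% on ob/ob TBP-2-/-, 31.1% on ob/ob, 76.2% on TBP-2-/- and 32.5% on WT (chr11:69481007-69481066). The TBP-2-/- array stood apart, and on this scale the ob/ob and WT arrays lay close together, whereas ob/ob lay 0.59 above WT (log2) under spike-in scaling. The log2 difference of 1.23 ± 0.21 for TBP-2-/- minus WT, a fold of 2.35, was the largest among the 9 members measured on all arrays, and 1.03% of all genes had a difference at or above it. For ob/ob TBP-2-/- minus ob/ob it was 0.36 ± 0.21, and -0.16 under spike-in scaling. With normexp background correction the lean difference was 0.80. The 3 spots beside the Cd68 spot that were well above background had a median log2 difference of 0.40 for TBP-2-/- minus WT, between 0.04 and 0.43. Such medians were also above 0 beside Adgre1 (0.32), Cd163 (0.23), Csf1r (0.21) and Mrc1 (0.13). They were below 0 beside Itgam (-0.12), Lyz2 (-0.13), Ctss (-0.18), Lgals3 (-0.18, from 1 spot) and Fcgr1 (-0.24). The part of neighbouring spots in the members' values was not tested.

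Ctss encodes cathepsin S, a protease that trims the invariant chain for antigen presentation. The level of Ctss was 508% on the ob/ob TBP-2-/- array, 367% on the ob/ob array, 563% on the TBP-2-/- array and 333% on the WT array (chr3:95641644-95641703). Both arrays without TBP-2 lay above both with it on this scale. On the log2 scale Ctss differed by 0.76 ± 0.20 for TBP-2-/- minus WT and 0.47 ± 0.20 for ob/ob TBP-2-/- minus ob/ob, and -0.05 in the second under spike-in scaling.

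Lyz2, the lysozyme gene of macrophages and neutrophils, had the smallest TBP-2 effect among the members in the additive fit given further on. It had levels of 6012% (ob/ob TBP-2-/-), 5109% (ob/ob), 6642% (TBP-2-/-) and 5250% (WT) at chr10:116681504-116681563. The log2 difference was 0.34 ± 0.20 for TBP-2-/- minus WT and 0.23 ± 0.20 for ob/ob TBP-2-/- minus ob/ob, with -0.28 in the second under spike-in scaling. A dimmer Lyz2 probe 4725 bases away had differences of 0.29 ± 0.21 and 0.07 ± 0.21 in the same comparisons. Lyz1 is a closely related neighbouring gene, and whether the probes tell the lysozymes apart was not tested. A Lyz1 probe had levels of 771% (ob/ob TBP-2-/-), 729% (ob/ob), 932% (TBP-2-/-) and 719% (WT).

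Lgals3 encodes galectin-3, a lectin of macrophages that other cells, fibroblasts and adipose cells among them, can also make. Its 60-base probe spans 817 genomic bases (chr14:46306600-46307416). It had levels of 199% on ob/ob TBP-2-/-, 145% on ob/ob, 136% on TBP-2-/- and 81.1% on WT. It was the member whose order differed from the rest: the ob/ob array lay above the TBP-2-/- array, and the ob/ob TBP-2-/- array was the highest, a place taken by the ob/ob array under spike-in scaling. Lgals3 differed by a log2 of 0.74 ± 0.21 for TBP-2-/- minus WT and 0.45 ± 0.20 for ob/ob TBP-2-/- minus ob/ob, the second being -0.07 under spike-in scaling.

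**Figure D2:**
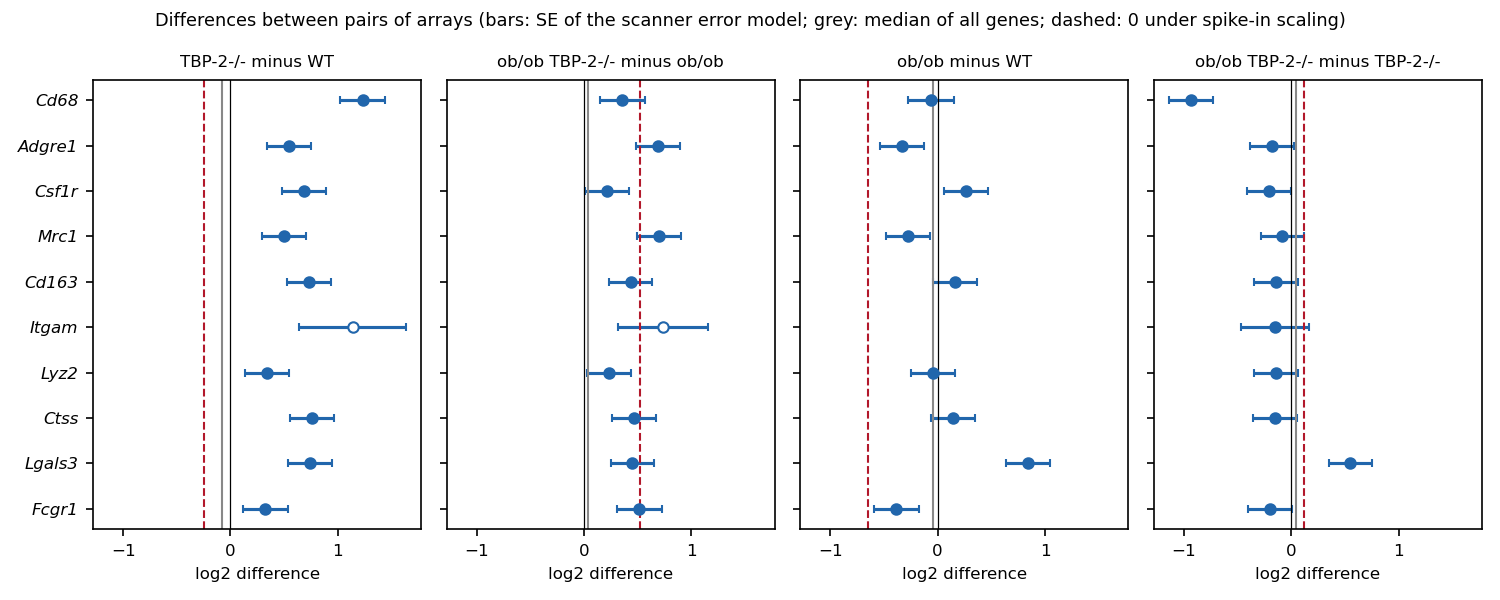
Log2 difference (horizontal axes) of each macrophage marker gene between the arrays named above each panel, with bars of 1 SE of the scanner error model. Open points rest on 1 array that was not well above background, and Itgam is left out of ob/ob minus WT, where neither array was. The grey line is the median of all genes, and the dashed line marks where 0 lies under spike-in scaling: for ob/ob TBP-2-/- minus ob/ob only Adgre1 and Mrc1 of the 9 members measured on all arrays lie above it.

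Counted by size, 5 of 9 members were 1.5-fold or more higher on TBP-2-/- than on WT (Cd68, Csf1r, Cd163, Ctss and Lgals3), where 5.91% of all genes were, and spike-in scaling raised this to 8 members and 13.7% of all genes. Only Cd68 was 2-fold or more higher, a size reached by 1.73% of all genes. On ob/ob TBP-2-/- against ob/ob, Adgre1 and Mrc1 (2 of 9) were 1.5-fold or more higher, against 6.62% of all genes, none reached 2-fold, as 1.91% of all genes did, and none reached 1.5-fold under spike-in scaling. No member was 1.5-fold or more lower on TBP-2-/- than on WT (3.29% of all genes were) or on ob/ob TBP-2-/- than on ob/ob (3.53%). Summed over the 9 members, the level was 7687% on the ob/ob TBP-2-/- array, 6328% on the ob/ob array, 8453% on the TBP-2-/- array and 6370% on the WT array. A sum gives most weight to bright probes, and without that of Lyz2 the sums were 1675% (ob/ob TBP-2-/-), 1220% (ob/ob), 1811% (TBP-2-/-) and 1120% (WT).

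**Figure D3:**
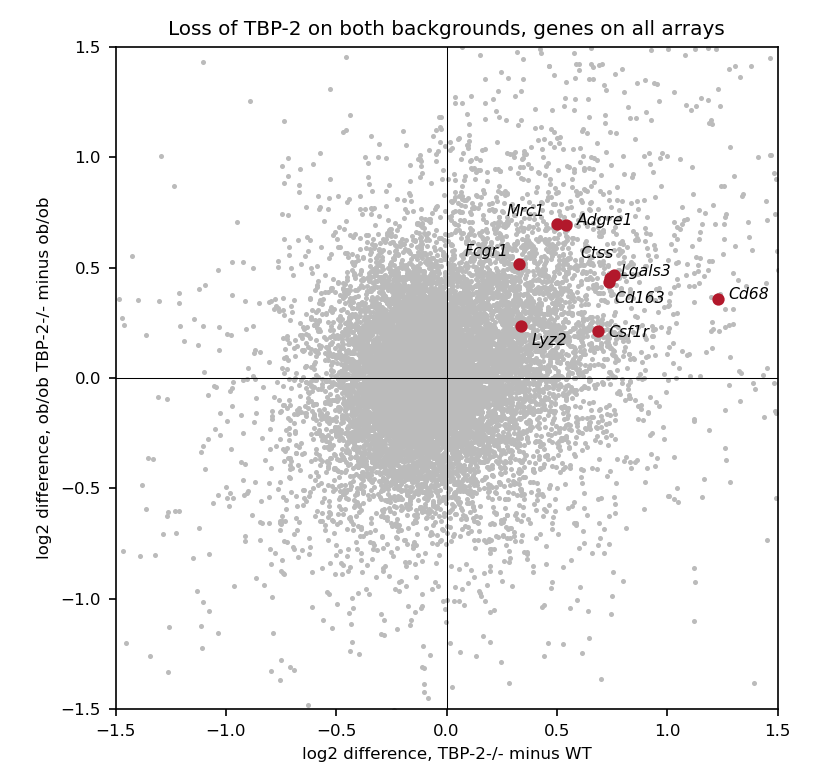
Log2 difference for TBP-2-/- minus WT (horizontal axis) and for ob/ob TBP-2-/- minus ob/ob (vertical axis), on the 75th percentile scale, of the 14907 genes well above background on all arrays (grey) and the 9 macrophage marker genes among them (red). All 9 lie above 0 on both axes, although 7 of the 9 lie below 0 on the vertical axis under spike-in scaling, and 204 genes fall outside the axes.

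The promoters of 4 members are shown because these genes span the pattern: Cd68 had the largest lean difference, Mrc1 stayed above 0 in both TBP-2 comparisons under either scaling, Ctss lay close to the members' mean pattern, and Fcgr1 lies close to Txnip. Each is the 250 bases before the RefSeq transcription start on GRCm38.p6, read 5′ to 3′ on the gene's own strand. Capitals mark GAGGAA, the core bound by PU.1, or its reverse complement TTCCTC, and TGANTCA, the site of the AP-1 factors.
Cd68 promoter, chr11:69666171-69666420, - strand: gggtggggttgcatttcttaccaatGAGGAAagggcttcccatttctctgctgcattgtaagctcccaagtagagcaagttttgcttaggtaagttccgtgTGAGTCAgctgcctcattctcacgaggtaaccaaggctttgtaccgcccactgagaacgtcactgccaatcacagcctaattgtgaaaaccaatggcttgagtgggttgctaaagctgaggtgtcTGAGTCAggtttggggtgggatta
Mrc1 promoter, chr2:14229164-14229413, + strand: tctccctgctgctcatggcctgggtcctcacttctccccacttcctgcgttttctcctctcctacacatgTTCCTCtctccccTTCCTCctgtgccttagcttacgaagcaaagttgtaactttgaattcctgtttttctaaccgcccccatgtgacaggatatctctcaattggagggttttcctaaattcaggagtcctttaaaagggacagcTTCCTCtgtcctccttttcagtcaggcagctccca
Ctss promoter, chr3:95526536-95526785, + strand: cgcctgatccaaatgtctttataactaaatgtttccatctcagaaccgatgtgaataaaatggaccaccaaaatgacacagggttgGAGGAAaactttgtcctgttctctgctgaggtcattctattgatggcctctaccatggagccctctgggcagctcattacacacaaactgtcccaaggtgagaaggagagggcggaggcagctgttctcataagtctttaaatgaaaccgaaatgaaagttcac
Fcgr1 promoter, chr3:96293970-96294219, - strand: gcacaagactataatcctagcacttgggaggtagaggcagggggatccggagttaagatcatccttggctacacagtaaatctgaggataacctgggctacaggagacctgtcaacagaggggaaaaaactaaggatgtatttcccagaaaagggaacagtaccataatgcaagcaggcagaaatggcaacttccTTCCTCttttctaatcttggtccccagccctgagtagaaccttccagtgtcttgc

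Promoters were found for 8 of the 10 members, not for Adgre1 and Csf1r. The GAGGAA letters, searched on both strands, stood in 5 of the 8 windows, at 8 places, and in 23.3% of all 32851 mouse promoter windows of the same length. Besides the 4 shown, the Itgam window held them, 84 and 15 bases before the start. TGANTCA, which reads the same on both strands apart from its middle base, stood in the Cd68 window alone, 149 and 24 bases before the start, against 6.75% of all windows. CACGTG, the E-box, stood in none of the 8 windows and in 6.02% of all. No motif overlapped another. A match of these letters is a description of the window, not evidence of binding.

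The effect of the ob/ob genotype was read with and without TBP-2. On ob/ob against WT the members did not share a direction: on the 75th percentile scale 4 of 9 were higher, against 44.4% of all genes, while all 9 were higher under spike-in scaling, as were 94.8% of all genes. Spike-in scaling moved the median of all genes to 0.60 for ob/ob minus WT and to -0.07 for ob/ob TBP-2-/- minus TBP-2-/-, against -0.05 and 0.04 on the 75th percentile scale. The members' median log2 difference relative to all genes was 0.01. Csf1r, Cd163, Ctss and Lgals3 had the lowest level of the arrays on WT (4 of 9, against 23.6% of all genes), and Cd68, Adgre1, Mrc1, Lyz2 and Fcgr1 had it on ob/ob (5 of 9, against 26.1%). Under spike-in scaling all 9 were lowest on WT, and the share of all genes lowest on WT was not counted there. That scaling also put 94.8% of all genes higher on ob/ob than on WT, and 78.1% higher on TBP-2-/- than on WT.

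Lgals3 was the only member 1.5-fold or more higher on ob/ob than on WT (1 of 9, against 6.2% of all genes), with a log2 difference of 0.84 ± 0.21 and a fold of 1.79, and under spike-in scaling 6 members were, as were 51.9% of all genes. On the 75th percentile scale none reached 2-fold higher there (1.88% of all genes did) or 1.5-fold lower (6.8%). Lgals3 was also the only member higher on ob/ob TBP-2-/- than on TBP-2-/-, by 0.55 ± 0.20 (1 of 10, against 56.1% of all genes), and remained the only one under spike-in scaling, at 0.43. No member reached 1.5-fold higher in that comparison, against 6.39% of all genes. The lowest value for ob/ob minus WT was that of Fcgr1, -0.39 ± 0.21 (0.26 under spike-in scaling), followed by Adgre1 at -0.33 ± 0.20 (0.32).

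On ob/ob TBP-2-/- against TBP-2-/-, the other 9 of the 10 members lay lower. Cd68 was 1.91-fold lower, a log2 difference of -0.93 ± 0.21, and the only member past 1.5-fold (1 of 10, against 4.91% of all genes). With normexp background correction it was -0.68. The log2 differences of the other 8 lay between -0.08 (Mrc1) and -0.21 (Csf1r), all within about 1 SE of 0. The median of the 10 members relative to all genes was -0.19.

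The difference between the TBP-2 effects in the 2 backgrounds, ob/ob minus lean, was -0.87 ± 0.30 for Cd68 on the log2 scale, and 2.76% of all genes were at or below that value. For the other 8 members measured on all arrays it lay between -0.47 ± 0.29 (Csf1r) and 0.20 ± 0.29 (Mrc1). It was below 0 for 6 of the 9, Adgre1, Mrc1 and Fcgr1 being the exceptions. Over all genes its median was 0.09, with 5th and 95th percentiles of -0.66 and 0.71, and the share of genes below 0 was not counted. Under spike-in scaling the difference was below 0 for all 9. That scaling lowers this difference for all genes alike, taking Cd68 to -1.64, so the count of 9 does not set the members apart. With 1 array per genotype this difference could not be tested.

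The one test that the 4 arrays allow is an additive fit with limma, in which every gene has a TBP-2 effect and an ob/ob effect. A gene's own error is its departure from additivity, with 1 residual degree of freedom. In limma this is drawn towards a variance shared over all genes, which weighed as 3.68 degrees of freedom. The error therefore reflects only in part how alike the effect was in the 2 backgrounds, and not the spread between mice. None of the 10 members passed an adjusted p of 0.05 for the TBP-2 effect in limma, whereas 9 of 16114 genes (0.0559%) were higher and 6 (0.0372%) lower. Itgam entered the fit only through the arrays without TBP-2, where it was high, so the sign of its effect was set by the filter and no effect is given for it. Of the other 9 members, 6 were higher at an unadjusted p under 0.05 in limma (Adgre1, Cd163, Cd68, Ctss, Lgals3 and Mrc1), against 5.56% of the 14907 genes well above background on all arrays and 7.11% of all genes in the fit. Under spike-in scaling 0 of 9 were, against 0.946% of those 14907 genes. The TBP-2 effects of the 9 lay between 0.29 ± 0.16 (Lyz2, limma adjusted p = 0.662) and 0.79 ± 0.26 (Cd68, limma adjusted p = 0.422), and all 9 were above 0, also under spike-in scaling. Each effect is the mean of the 2 pairwise TBP-2 differences, so this count adds nothing to theirs. The share of all genes with an effect above 0 was not counted. With normexp background correction Cd163 and Ctss passed, with a lowest limma adjusted p of 0.0363. Under normexp, as under spike-in scaling, the shared variance was the whole error of every gene, so only the size of an effect counted.

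For the ob/ob effect none of the 10 members passed in limma, where 16 genes (0.0993%) were higher and 20 (0.124%) lower. Lgals3 had an effect of 0.70 ± 0.17 (limma adjusted p = 0.231) and was the only member with an unadjusted p under 0.05 among higher genes, against 7.48% of all genes. It passed with normexp background correction (limma adjusted p = 0.0233) and with a variance trend (limma adjusted p = 0.0492).

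Further genes of macrophages and their relatives were read from lists. Of all genes, 39.6% were higher on TBP-2-/- than on WT and 55.6% on ob/ob TBP-2-/- than on ob/ob. Under spike-in scaling these shares were 78.1% and 8.58%. They are the shares to set beside the counts of every list below in these 2 comparisons. Of 24 pan-macrophage and myeloid genes, 21 were measured on both lean arrays, and 21 of 21 were higher on TBP-2-/- than on WT, with a median log2 difference of 0.50 against -0.07 over all genes. On ob/ob TBP-2-/- against ob/ob 21 of 23 were higher, with a median of 0.35 against 0.04 over all genes, and under spike-in scaling 6 of 23 were. The list's median relative to all genes, which spike-in scaling leaves as it is, was 0.31. None of 23 passed the TBP-2 effect at an adjusted p of 0.05 in limma. Aif1, which encodes the macrophage protein IBA1, had levels of 71.1% (ob/ob TBP-2-/-), 40.8% (ob/ob), 85.6% (TBP-2-/-) and 84.2% (WT), so on this scale the TBP-2-/- and WT arrays were close and the ob/ob array was the lowest. Laptm5, a lysosomal protein of blood cells, had 22.5% (ob/ob TBP-2-/-), 12.0% (ob/ob), 25.8% (TBP-2-/-) and 17.4% (WT), and Ms4a7 had 39.6% (ob/ob TBP-2-/-), 22.4% (ob/ob), 42.0% (TBP-2-/-) and 30.3% (WT).

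Genes of resident or alternatively activated macrophages, the class to which Mrc1 and Cd163 belong, were mostly lower on ob/ob than on WT on the 75th percentile scale. Of the 14 measured, 3 were higher, against 44.4% of all genes. Under spike-in scaling 10 of 14 were, against 94.8% of all genes. The list's median relative to all genes was -0.38, where that of the members was 0.01. Retnla, a secreted protein of alternatively activated macrophages, had levels of 552% (ob/ob TBP-2-/-), 387% (ob/ob), 1573% (TBP-2-/-) and 947% (WT). Cd209f, a lectin, had 126% (ob/ob TBP-2-/-), 78.5% (ob/ob), 271% (TBP-2-/-) and 198% (WT). Both were lower on the 2 ob/ob arrays than on the 2 lean arrays, under spike-in scaling too. Lyve1, the hyaluronan receptor, had 152% (ob/ob TBP-2-/-), 128% (ob/ob), 148% (TBP-2-/-) and 88.7% (WT), and Pf4, a chemokine gene, had 725% (ob/ob TBP-2-/-), 411% (ob/ob), 763% (TBP-2-/-) and 602% (WT). For TBP-2-/- minus WT 11 of 14 genes of this list were higher, and 14 of 15 for ob/ob TBP-2-/- minus ob/ob, with medians relative to all genes of 0.40 and 0.43. Under spike-in scaling these counts were 12 of 14 and 5 of 15.

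Several inflammatory cytokine and enzyme genes could not be measured. Tnf, Il1b, Il6, Nos2, Ptgs2, Cd80 and Il12b, 7 of the 13 inflammatory genes on the array, were not well above background on any array. Of the 27564 genes with a value on every array, 16114 were well above background on 2 or more arrays. The share of all genes well above background on no array was not counted, so these 7 are not set apart. Of the 4 that were measured on all arrays, Ccl2, the chemokine that draws monocytes, had levels of 89.2% (ob/ob TBP-2-/-), 33.9% (ob/ob), 41.0% (TBP-2-/-) and 27.1% (WT), while Cd86, a costimulatory protein, stayed between 5.10% and 6.37%. Tlr2 and Tlr4, sensors of microbial products, were highest on the TBP-2-/- array on this scale, at 44.9% and 48.4%.

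Among 15 measured lysosome and lipid-associated genes, 11 were higher on TBP-2-/- than on WT and 13 on ob/ob TBP-2-/- than on ob/ob, with medians relative to all genes of 0.34 and 0.15. Under spike-in scaling 12 and 2 of the 15 were higher. Spp1, which encodes osteopontin, had 141% (ob/ob TBP-2-/-), 76.6% (ob/ob), 149% (TBP-2-/-) and 34.4% (WT), and its WT array was the lowest. Trem2, a lipid receptor of macrophages, had 45.3% (ob/ob TBP-2-/-), 33.1% (ob/ob), 40.9% (TBP-2-/-) and 23.8% (WT). Gpnmb and the protease gene Ctsk were 1.75-fold and 1.71-fold higher on TBP-2-/- than on WT, a direction that spike-in scaling keeps. The ligands of the Csf1r receptor, Csf1 and Il34, were 1.32-fold and 1.30-fold higher on TBP-2-/- than on WT, and Cx3cl1, a chemokine that acts on monocytes, was 1.30-fold higher, with all 3 higher under spike-in scaling too. On ob/ob TBP-2-/- against ob/ob 2 of the 3 were higher, and 0 of 3 under spike-in scaling. Csf2 was not well above background on any array.

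Markers of other cells differed in the same comparisons, and their part in the macrophage values was not tested. Adipocyte markers were higher in 7 of 7 for TBP-2-/- minus WT and 7 of 7 for ob/ob TBP-2-/- minus ob/ob, with medians relative to all genes of 0.88 and 1.27, and summed levels of 25653% (ob/ob TBP-2-/-), 13869% (ob/ob), 32387% (TBP-2-/-) and 21392% (WT). Under spike-in scaling the adipocyte counts were the same. Schwann cell markers were higher in 6 of 6 in both (5 of 6 in the second under spike-in scaling), with relative medians of 1.05 and 0.68, and summed levels of 961% (ob/ob TBP-2-/-), 554% (ob/ob), 917% (TBP-2-/-) and 359% (WT). Fibroblast markers were higher in 6 of 6 in both (3 of 6 in the second under spike-in scaling), with relative medians of 0.44 and 0.48, and summed levels of 43424% (ob/ob TBP-2-/-), 28726% (ob/ob), 38391% (TBP-2-/-) and 29807% (WT). Ptprc, the CD45 gene of all leukocytes, had 36.1% (ob/ob TBP-2-/-), 27.1% (ob/ob), 43.7% (TBP-2-/-) and 27.0% (WT). Of other leukocytes, 6 of 11 neutrophil genes (Elane, Ngp, Camp, Ltf, Mmp8 and Csf3r), 4 of 7 T cell genes (Cd3g, Cd8a, Cd2 and Lck) and 3 of 5 B cell genes (Ms4a1, Cd79a and Pax5) were not well above background on any array. The share of all genes to set beside these 3 counts was not counted. Skeletal muscle markers were higher in 0 of 8 for TBP-2-/- minus WT and 6 of 8 for ob/ob TBP-2-/- minus ob/ob, with relative medians of -0.13 and 0.12, and in 7 of 8 and 1 of 8 under spike-in scaling. Endothelial markers had relative medians of 0.26 and -0.20. S100a9, a neutrophil gene, had 34.6% (ob/ob TBP-2-/-), 42.3% (ob/ob), 23.7% (TBP-2-/-) and 22.0% (WT). Mpo, the other neutrophil gene measured on all arrays, had 5.03% (ob/ob TBP-2-/-), 5.66% (ob/ob), 5.25% (TBP-2-/-) and 6.16% (WT). Relative medians do not depend on the scaling factor.

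**Figure D4:**
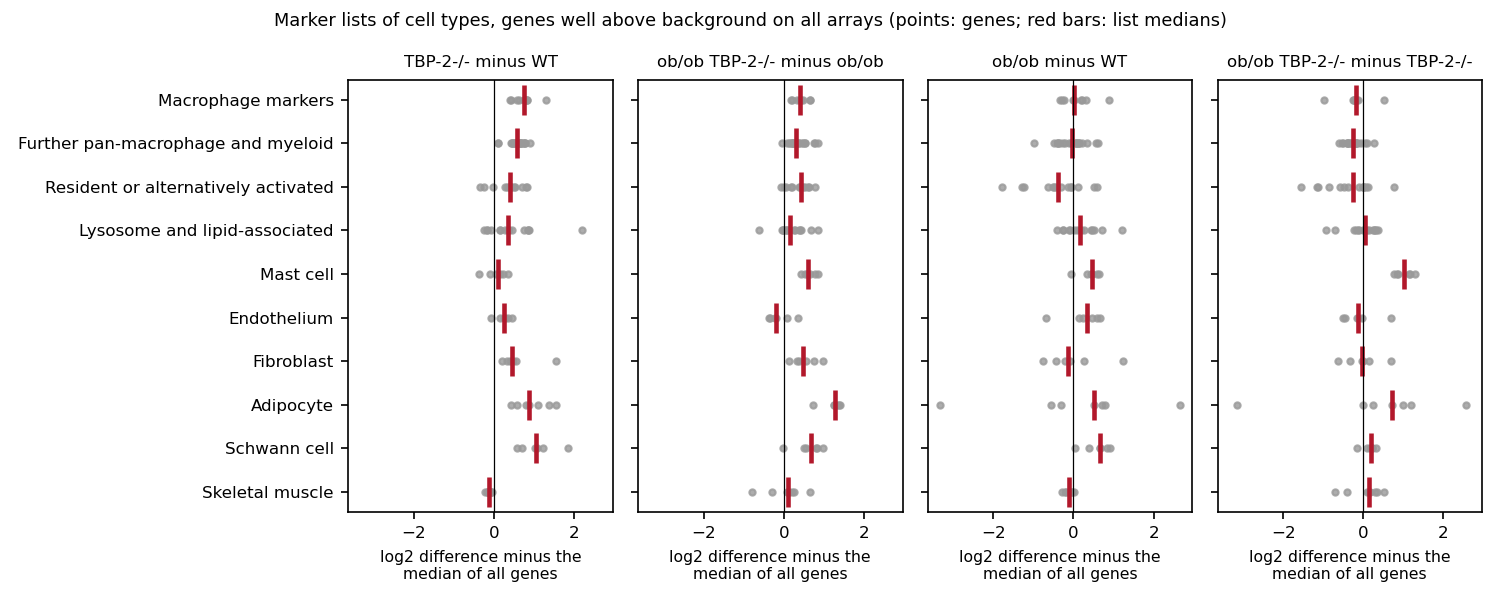
Log2 difference minus the median of all genes (horizontal axes) for marker lists of cell types, between the arrays named above each panel. Grey points are genes well above background on all arrays and red bars are the medians of a list. All 9 macrophage marker genes lie right of 0 in both TBP-2 comparisons, as do the medians of the adipocyte, Schwann cell and fibroblast lists, and these positions do not depend on the scaling factor.

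The genes whose pattern over the 4 arrays was most like the mean of the 9 members were sought among 1442 other genes with a range of at least 1 on the log2 scale. The distance was Euclidean, over log2 values centred on each gene's own mean. The members' mean profile was 114% of its own geometric mean on ob/ob TBP-2-/-, 83.6% on ob/ob, 128% on TBP-2-/- and 81.7% on WT. The nearest were Pi16 (distance 0.28), C4b (0.29), Ildr2 (0.32), a transcript that the files list without a gene symbol (0.34) and Stmn1 (0.34). C4b, which encodes complement component C4 and has a close relative in C4a, had levels of 138% (ob/ob TBP-2-/-), 96.1% (ob/ob), 175% (TBP-2-/-) and 84.4% (WT). Pi16, a marker of a class of fibroblasts, had 729% (ob/ob TBP-2-/-), 582% (ob/ob), 1027% (TBP-2-/-) and 511% (WT). Among the members, Cd163 (0.10) and Ctss (0.10) lay nearest to the mean profile and Lgals3 (0.76) and Cd68 (0.60) farthest from it.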

How the data were processed

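Muscle RNA carried Agilent spike-in transcripts and a Cy3 label, per the labels' protocols. Spot intensity values, background-subtracted and not scaled between arrays, were deposited as the output of Agilent Feature Extraction 9.5.3.1, per the file headers and the submitters' processing notes. A log2 value table, centred on each probe's median, was also deposited by the authors and served as an alternative. Here spots flagged as outliers were left out, replicate spots averaged, log2 taken, and the 75th percentile of the 41174 non-control probes subtracted within each array. Probes were named through a RefSeq table of GRCm38.p6 (24375 by accession, 6301 by symbol, 2426 by synonym), and 8072 kept the files' name. The brightest probe stood for a gene. A pair of arrays was compared over genes that both measured well above background. The additive fit used limma 3.58.1 in R 4.3.3 (lmFit, eBayes, Benjamini-Hochberg) on genes that 2 or more arrays measured well above background, and was checked on simulated data. The number of arrays limits the precision. Named genes were all 10 members, up to 4 genes per related list with the largest TBP-2 differences among genes well above background on all 4 arrays, the 5 genes nearest the members' profile, and Txnip; 1 gene that this rule names is not reported here. The members and lists were chosen with earlier results of these data known. Alternatives were normexp (offset 50), quantile and spike-in scaling (8 spike-in probes), the value table, the median over a gene's probes, other filters on dim probes, and a variance trend.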

Additional observations from a re-analysis of the deposited data

Results flagged for a closer look

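Csf1r, Cd163 and Ctss had ob/ob differences of opposite sign with and without TBP-2, on the 75th percentile scale. The log2 difference of Csf1r was 0.26 for ob/ob minus WT and -0.21 for ob/ob TBP-2-/- minus TBP-2-/-. For Cd163 the values were 0.16 and -0.14, and for Ctss 0.14 and -0.15, in the same comparisons. The single array of each genotype moved one way in one background and the opposite way in the other, and the difference was not tested. Each value is close to the SE of the scanner error model, about 0.20.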

How the results depend on the processing

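With 1 array per genotype, the counts and medians describe these arrays. The p of the additive fit weighs the size of an effect against an error that joins the departure from additivity to a variance shared over all genes. A low p therefore shows neither like effects in both backgrounds nor repeatability between mice. Cd68, for one, had an unadjusted p under 0.05 in limma with TBP-2 effects of 1.23 (lean) and 0.36 (ob/ob). No paired analysis was possible because each genotype had 1 array, so no replicate number links the groups. The additive fit already holds the ob/ob background as a factor. Dim probes, those of Itgam above all, give bounds only. The authors' value table kept every member's pairwise value within the SE of the scanner error model. Spike-in scaling moved 36 of 45 values of single members by more than 1 SE, normexp 2, the median over a gene's probes 6 and quantile normalization 1. In every case the cause was not tested beyond the construction of the setting.

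For TBP-2-/- minus WT, the members 2-fold or more higher numbered 0 with normexp and 2 with spike-in scaling, which also gave 8 members 1.5-fold or more higher and a median of 0.93. For ob/ob TBP-2-/- minus ob/ob, the members 1.5-fold or more higher numbered 0 with normexp, 0 with spike-in scaling and 1 with the median over probes, and the median of the members was -0.067 with spike-in scaling. For ob/ob minus WT the median of the members was 0.19 with quantile normalization and 0.61 with spike-in scaling, which put 6 members at 1.5-fold or more higher and 1 at 2-fold. With the median over probes the members' median relative to all genes was -0.020 there, and 1 member was 1.5-fold or more lower. For ob/ob TBP-2-/- minus TBP-2-/- the median over probes put 2 members at 1.5-fold or more lower, Cd68 and Adgre1. The Adgre1 values under this setting include a probe that was not well above background on any array, and those of Fcgr1, the member lower for ob/ob minus WT, a probe that was so only on TBP-2-/- and WT.

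In the additive fit by limma, the genes higher and lower with TBP-2-/- numbered 9 and 6. They were 313 and 157 with normexp, 59 and 39 with spike-in scaling, 5 and 2 with no filter on dim probes, 15 and 15 for genes well above background on all 4 arrays, and 111 and 61 with a variance trend. For ob/ob, 16 were higher and 20 lower. They were 358 and 436 with normexp, 178 and 58 with spike-in scaling, 8 and 8 with the median over probes, 50 and 66 for genes well above background on all 4 arrays, and 224 and 226 with a variance trend. Quantile normalization left 0 and 0 in limma for both effects, with 1601 (TBP-2-/-) and 2200 (ob/ob) genes at an unadjusted p under 0.05, and no filter on dim probes left 0 and 0 for ob/ob, with 2064 genes at an unadjusted p under 0.05. Members past the threshold numbered 2 for TBP-2-/- with normexp (Cd163 and Ctss), and for ob/ob 1 with normexp and 1 with a variance trend (Lgals3 in both).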

Other observations

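Mast cell genes stood out in the muscle that lacked both leptin and TBP-2. All 6 markers were higher on ob/ob TBP-2-/- than on TBP-2-/-, and all 6 than on ob/ob, with medians relative to all genes of 1.01 and 0.62, which do not depend on the scaling factor. Under spike-in scaling the counts were 6 of 6 and 5 of 6. Of all genes, 56.1% and 55.6% were higher in these comparisons, or 39.7% and 8.58% under spike-in scaling. The summed level of the 6 markers was 1066% of the array's 75th percentile on ob/ob TBP-2-/-, 624% on ob/ob, 469% on TBP-2-/- and 465% on WT. Cma1, which encodes mast cell chymase, had levels of 476% (ob/ob TBP-2-/-), 272% (ob/ob), 190% (TBP-2-/-) and 181% (WT). None of the 6 passed an adjusted p of 0.05 in limma's additive fit. TBP-2-/- against WT gave a relative median of 0.10 for this list, where the macrophage marker genes gave 0.76.

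Some genes outside the naming rule were chosen after their values were seen. Cbr2, a carbonyl reductase often listed with resident macrophages, had levels of 1094% (ob/ob TBP-2-/-), 820% (ob/ob), 2320% (TBP-2-/-) and 2907% (WT), and was lower on both ob/ob arrays. Ncf1, a subunit of the phagocyte NADPH oxidase, had 5.41% (ob/ob TBP-2-/-), 6.53% (ob/ob), 17.3% (TBP-2-/-) and 3.49% (WT), with 1 of the arrays not well above background. Itgax, the CD11c gene, had its highest value on the TBP-2-/- array on the 75th percentile scale, at 15.5%. Itgax was well above background on only 1 array, so its order over the arrays was not measured.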
